A study of Mus musculus with 4 samples.

Results

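The regions described here are 399 peaks of the LSD1 chromatin immunoprecipitation (ChIP) library that lie outside the peaks of the dimethylated histone H3 lysine 4 (H3K4me2) library. They were chosen from the 5106 deposited LSD1 peaks as those on the 19 autosomes that share 0 bp with any of the 32256 H3K4me2 peaks and 0 bp with any of the 158 peaks of the control IgG library. They made up 7.88% (exact Clopper-Pearson 95% interval 7.15 to 8.66) of the 5062 autosomal LSD1 peaks that touch no IgG peak. The other 4663 share at least some sequence with an H3K4me2 peak and are called shared peaks below, while the 399 are called outside peaks.

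The cells were mouse R1 embryonic stem cells of 129SV origin, untreated, at passages 13 to 18 and kept undifferentiated with leukaemia inhibitory factor. Fixed chromatin was taken as Input without antibody, or recovered with control IgG, with an antibody labelled as against LSD1, or with an antibody against H3K4me2. Each of the 4 groups held 1 library, with 3801082 reads for Input, 4755619 for IgG, 5833862 for LSD1 and 6416657 for H3K4me2. There was therefore no replicate, no p-value is given, and every interval is a 95% interval. Intervals of read densities and ratios cover counting error within these libraries only, and not the spread between peaks. Intervals of shares treat each peak as a separate draw, although all peaks come from the same libraries. No interval covers variation between cultures or repeated libraries. The catalogue number that the labels give for the LSD1 antibody belongs, as far as is known, to an H3K27me3 antibody of a different maker, so the name LSD1 is used as labelled.

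LSD1 (KDM1A) takes methyl groups off lysine 4 of histone H3 where it carries 1 or 2 of them. It acts in complexes with CoREST and histone deacetylases, which are brought to chromatin by sequence-specific factors. H3K4me2 marks active and poised promoters and enhancers, where it is carried by the nucleosomes on either side of the site that factors occupy. An LSD1 peak without an H3K4me2 peak is thus a place where the library labelled LSD1 had a call and H3K4me2 had none. Lysine 4 with 1 methyl group, also a substrate, was not measured here.

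The choice used the LSD1, the H3K4me2 and the IgG calls, so LSD1, H3K4me2 and IgG reads inside these peaks are given as a description of what was chosen. Leaving out peaks that touch an IgG peak favours low IgG reads, in the outside and in the shared peaks alike. Values are in RPM, a count scaled to a library of 1000000 reads, and a read was counted 100 bp downstream of its start on its own strand. The files give positions in mm9. No region was assigned to a gene and no sequence is shown, because no genome or gene models of that build were used here.

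The outside peaks carried LSD1 at much the same density as the shared peaks, but less H3K4me2. They were not free of the mark. Summed over the 399 peaks the LSD1 library gave 7.08 RPM per kb (6.91 to 7.25), the H3K4me2 library gave 3.84 (3.72 to 3.96), IgG gave 1.24 (1.16 to 1.32) and Input gave 0.298 (0.256 to 0.344). In the 4663 shared peaks LSD1 stood at 7.26, H3K4me2 at 8.94, IgG at 1.32 and Input at 0.417 on the same scale. The difference between the sets was thus mainly in the H3K4me2 library, the one whose calls separated them.

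Relative to IgG the LSD1 reads of the outside peaks stood 5.72-fold higher (5.34 to 6.13), beside 5.51-fold (5.42 to 5.61) in the shared peaks, and these intervals overlapped. H3K4me2 reads stood 3.10-fold over IgG (2.89 to 3.33) in the outside peaks and 6.79-fold (6.68 to 6.91) in the shared peaks. LSD1 exceeded H3K4me2 1.84-fold (1.77 to 1.92) in the outside peaks, whereas it was at 0.812 of H3K4me2 (0.805 to 0.818) in the shared peaks. Over autosomal sequence outside all 3 peak lists, LSD1 was at 0.925 of IgG and H3K4me2 at 0.826 of IgG. H3K4me2 reads in the outside peaks were therefore above the level of uncalled sequence, even though no H3K4me2 peak was called there.

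IgG reads were also raised at these sites. IgG exceeded Input 4.16-fold (3.55 to 4.90) in the outside peaks and 3.16-fold (3.05 to 3.27) in the shared peaks, against 0.990 outside all peak lists. Input itself was low, at 0.298 RPM per kb in the outside peaks against 0.485 in uncalled sequence 2 to 5 kb from their centres. Against Input in place of IgG, LSD1 stood 23.8-fold higher in the outside peaks (20.5 to 27.7) and H3K4me2 12.9-fold higher (11.1 to 15.1). The part of the IgG signal in the ChIP values was not tested.

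The outside peaks were narrower and held fewer reads. Their widths ran from 192 to 829 bp with a median of 382 bp, and those of the shared peaks from 206 to 6024 bp with a median of 471 bp. LSD1 counts ran from 11 to 54 reads with a median of 15, against a median of 19 in the shared peaks. H3K4me2 counts ran from 0 to 30 with a median of 10, against a median of 26. IgG counts ran from 0 to 17 with a median of 2, and Input counts from 0 to 5 with a median of 0. No Input read fell in 272 of the 399 peaks and no IgG read in 45, so ratios at single peaks are coarse. A count of 0 allows up to 3 reads, which is 0.789 RPM in Input and 0.631 RPM in IgG.

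Outside peaks were most frequent among LSD1 peaks with few reads. They were 15.3% (13.2 to 17.6) of the LSD1 peaks with under 15 LSD1 reads, 9.58% (8.18 to 11.1) at 15 to 19 reads, 4.40% (3.47 to 5.50) at 20 to 29 and 1.13% (0.489 to 2.21) at 30 or more, where 8 of 708 were outside peaks. Within each of these classes H3K4me2 was lower in the outside peaks, a difference that their choice by H3K4me2 calls favours. With 20 to 29 LSD1 reads H3K4me2 was 3.36-fold over IgG (2.91 to 3.89) in the 74 outside peaks and 7.20-fold (7.00 to 7.40) in the shared ones. At that read number median widths were 536 and 554 bp. The parts of read number and width in the H3K4me2 difference were not tested.

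At single peaks the LSD1 library was at least 2-fold over IgG in 390 of the 399 outside peaks, where a pseudocount of 0.5 reads was added to each count. Of all 5062 autosomal LSD1 peaks free of IgG peaks, 98.3% passed the same fold, so the share of 97.7% (95.8 to 98.96) in the outside peaks is near the background. The lower end of the single-peak interval lay above 1 in 332 (83.2%), against 90.3% of all 5062. H3K4me2 was at least 2-fold over IgG in 275 outside peaks (68.9%, 64.1 to 73.4), against 95.8% of all 5062. Its interval lay above 1 in 132 (33.1%), against 87.9%. In 49 outside peaks (12.3%) H3K4me2 was below IgG, against 1.15% of all 5062. H3K4me2 at the outside peaks thus ran from well above IgG down to no read at all, and 7 of them held none.

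Some outside peaks held as much H3K4me2 as weak called H3K4me2 peaks. Called autosomal H3K4me2 peaks held at least 10 H3K4me2 reads, with a 5th percentile of 15 and a median of 32. Of the 399 outside peaks 219 reached 10 reads and 68 reached 15. Among the 4663 shared peaks 4575 and 4182 did. By density, 107 of the outside peaks (26.8%) lay above the 1st percentile of called H3K4me2 peaks (4.88 RPM per kb), 57 (14.3%) above the 5th percentile (5.26) and 5 (1.25%) above the median (6.68). For the shared peaks these shares were 94.6%, 92.4% and 77.8%. The plot of H3K4me2 against LSD1 reads shows this continuity.

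**Figure D1:**
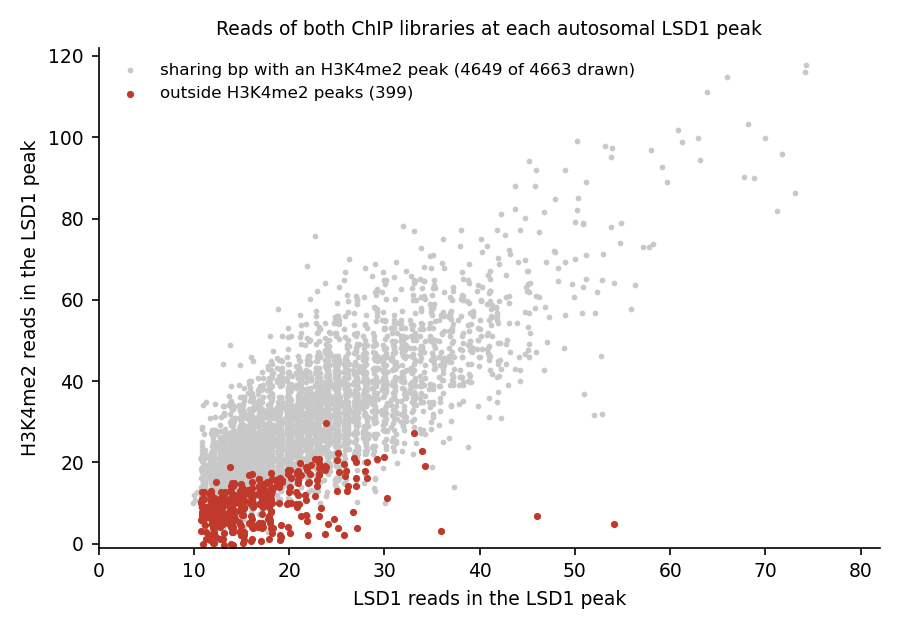
Each point is an autosomal LSD1 peak touching no IgG peak, with LSD1 reads on the x axis and H3K4me2 reads on the y axis, both moved by a small random amount so that equal counts can be seen. The 399 outside peaks (red) form the lower edge of the cloud of shared peaks (grey, 4649 of 4663 drawn), and 3 of them stand apart with 36 to 54 LSD1 reads and 3 to 7 H3K4me2 reads.

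Around their centres the outside peaks showed a sharp rise of LSD1 on a broader rise of H3K4me2. In the central 200 bp LSD1 reached 8.78 RPM per kb (8.52 to 9.06), close to the 8.55 (8.47 to 8.63) of the shared peaks, and H3K4me2 reached 4.13 (3.96 to 4.31), against 9.72 (9.64 to 9.79). IgG was at 1.37 and 1.32 in the same places. Against uncalled sequence 2 to 5 kb away, LSD1 was 10.6-fold higher in the outside peaks (10.2 to 10.9) and 8.69-fold higher in the shared peaks (8.62 to 8.77). H3K4me2 was 5.34-fold higher (5.15 to 5.54) and 9.31-fold higher (9.24 to 9.37). IgG rose over these flanks too, 2.08-fold (1.94 to 2.23) and 1.91-fold (1.88 to 1.94), while Input fell to 0.614 and 0.774 of them.

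**Figure D2:**
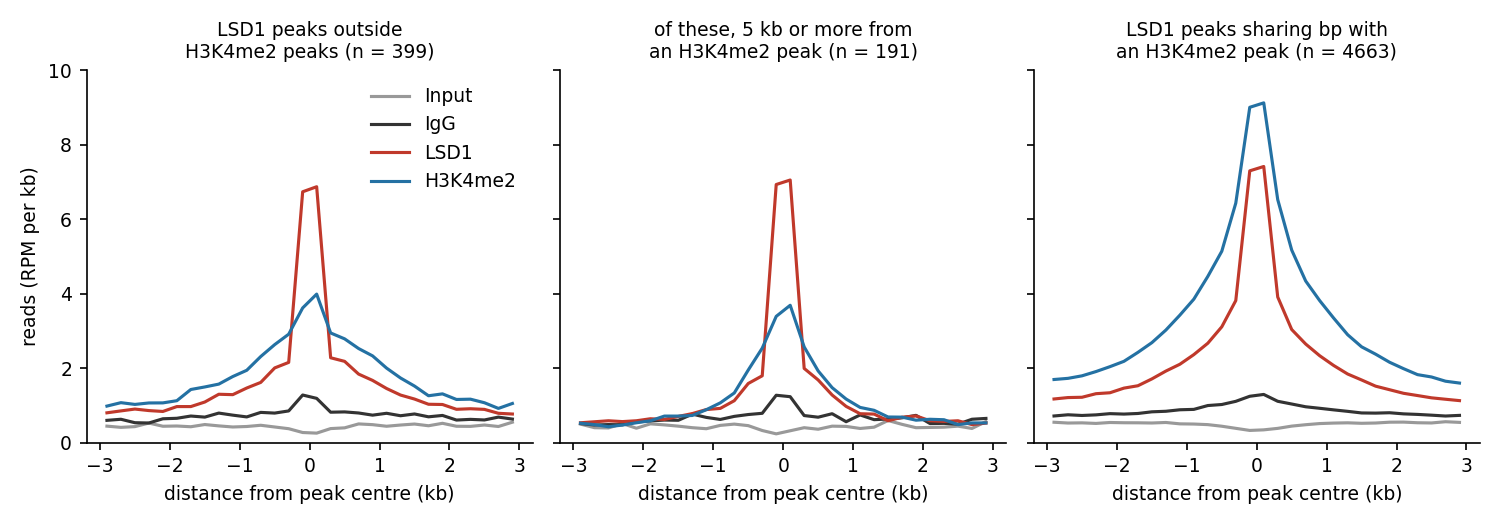
Reads of the 4 libraries in steps of 200 bp around the centres of all 399 outside peaks, of the 191 outside peaks that are 5 kb or more from an H3K4me2 peak, and of the 4663 shared peaks. The y axis is RPM per kb and the x axis is distance from the centre in kb. LSD1 (red) stands above H3K4me2 (blue) at the centre in the first 2 panels and below it in the third, and Input (light grey) dips at the centre in each.

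Many outside peaks lay close to an H3K4me2 peak. The median gap to the nearest one was 4022 bp, with quartiles at 419 and 25144.5 bp and a range of 0 to 1778946 bp. The gap was under 500 bp for 112 peaks (28.1%), between 500 bp and 1 kb for 32 and 1 to 5 kb for 64. It was 5 to 20 kb for 78, 20 to 100 kb for another 78, and 100 kb or more for 35 (8.77%). Of the 144 outside peaks under 1 kb away, 130 had an H3K4me2 peak within 1 kb on 1 side and 14 on both sides, so that these 14 sat in short gaps between H3K4me2 peaks. The nearest H3K4me2 peak held an LSD1 peak of its own for 28 of the 144 (19.4%, 13.3 to 26.9) and for 32 of the 255 peaks at 1 kb or more (12.5%, 8.74 to 17.3). Among all autosomal H3K4me2 peaks the share was 14.3% (13.9 to 14.6), within both intervals.

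For the 144 peaks under 1 kb away, profiles were turned so that the nearest H3K4me2 peak lay to the right. H3K4me2 then had 2 maxima, a lower one over the LSD1 peak and a higher one of 5.97 RPM per kb at 600 to 800 bp, within the neighbouring H3K4me2 peak. Between them, at 200 to 400 bp, it fell to 3.46. LSD1 was highest over its own peak, with 6.73 RPM per kb in the 200 bp to the right of the centre, and held at 3.47 at 600 to 800 bp. Both libraries were thus raised over the LSD1 peak and over the H3K4me2 peak beside it, in opposite order of height. The calls that chose these peaks and their neighbours favour that order and the fall of H3K4me2 between them. Both are therefore a description of the choice.

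**Figure D3:**
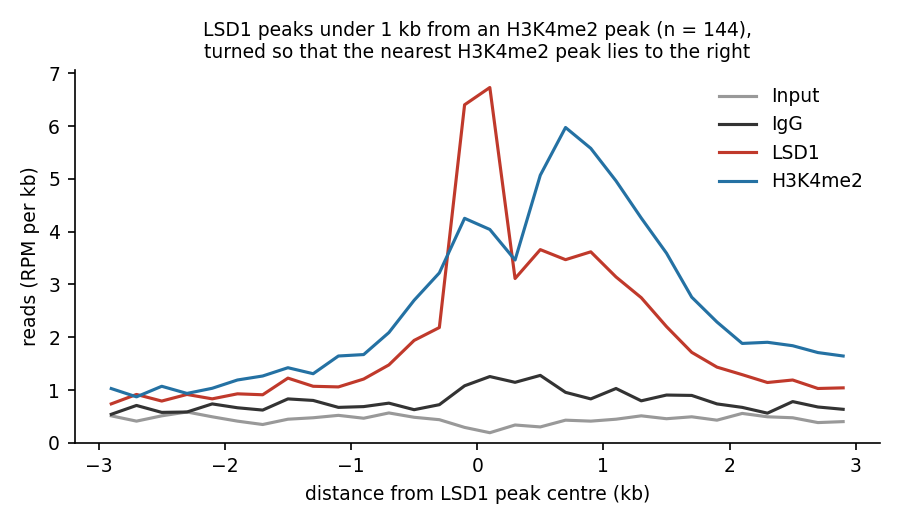
Reads of the 4 libraries in steps of 200 bp around the 144 outside peaks whose nearest H3K4me2 peak is under 1 kb away, turned so that this H3K4me2 peak lies to the right. The y axis is RPM per kb and the x axis is distance from the LSD1 peak centre in kb. H3K4me2 (blue) peaks at 5.97 over the neighbour and LSD1 (red) at 6.73 over its own peak.

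H3K4me2 reads were also raised at outside peaks far from any H3K4me2 peak. The 191 peaks at 5 kb or more from any H3K4me2 peak still held 3.88 RPM per kb of H3K4me2 (3.64 to 4.14) in their central 200 bp, against 0.528 (0.499 to 0.557) at 2 to 3 kb. LSD1 was at 9.05 (8.66 to 9.45) and 0.564 (0.533 to 0.596) in the same places. At 2 to 3 kb both intervals overlapped that of IgG, which was at 0.536 (0.503 to 0.571), and IgG reached 1.40 (1.23 to 1.58) at the centre.

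H3K4me2 did not decline steadily with distance. Over IgG it stood at 3.72 (3.23 to 4.29) with gaps under 500 bp and at 3.36 (2.62 to 4.36) between 500 bp and 1 kb. It was at 2.77 (2.34 to 3.29) for 1 to 5 kb and at 2.19 (1.87 to 2.58) for 5 to 20 kb. Beyond that it was higher again, at 3.32 (2.82 to 3.93) for 20 to 100 kb and 3.64 (2.83 to 4.75) for 100 kb or more. The intervals of the 5 to 20 kb class and of both classes beyond it did not overlap. The 3 peaks with the most LSD1 reads all lay in the 5 to 20 kb class, and without them its ratio was 2.28 (1.94 to 2.70). LSD1 to IgG ratios stayed between 5.10 (4.34 to 6.01) and 6.41 (5.02 to 8.29) over the 6 classes, with overlapping intervals. IgG density was highest in the 5 to 20 kb class, at 1.43 RPM per kb, and lowest at 100 kb or more, at 1.11. H3K4me2 density was lowest in the 5 to 20 kb class, at 3.14 RPM per kb against 3.78 to 4.23 in the other 5 classes. The part of IgG in the lower ratio of the 5 to 20 kb class was not tested.

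**Figure D4:**
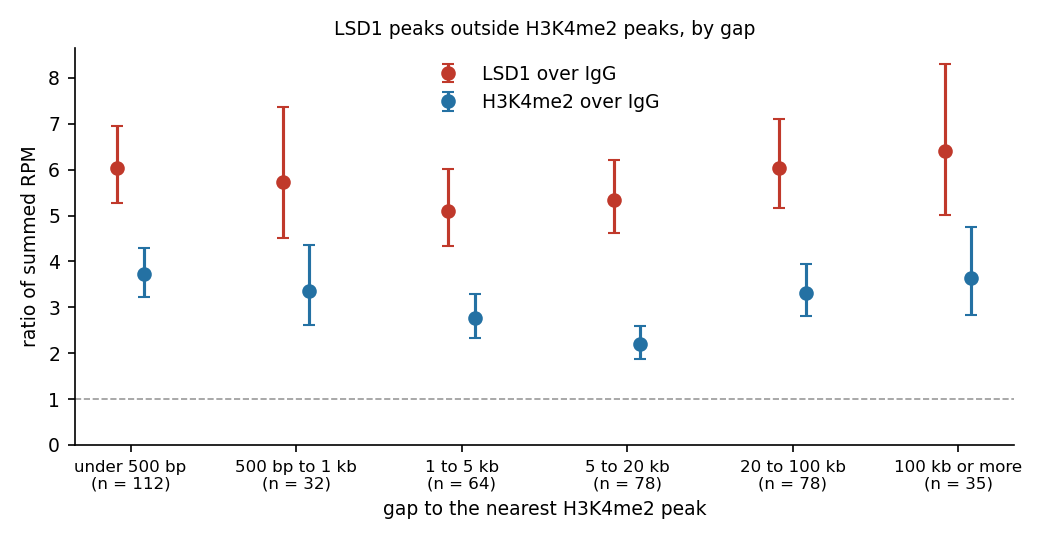
Ratios of summed RPM to IgG for LSD1 (red) and H3K4me2 (blue) in the outside peaks, grouped along the x axis by the gap to the nearest H3K4me2 peak. Bars are exact binomial 95% intervals and the dashed line marks a ratio of 1. H3K4me2 is lowest at 5 to 20 kb, at 2.19, and LSD1 stays between 5.10 and 6.41.

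The LSD1 to H3K4me2 ratio at single outside peaks had a long upper tail. Its median was 1.63, with quartiles at 1.37 and 2.45 and a highest value of 14.3 among those with at least 1 H3K4me2 read, while the median of the shared peaks was 0.833. For the 7 outside peaks with no H3K4me2 read the size of the ratio is set by the pseudocount. LSD1 was at least 2-fold over H3K4me2 in 135 of the 399 outside peaks (33.8%, 29.2 to 38.7) and in 45 of the 4663 shared peaks (0.965%). Among all 5062 peaks the share was 3.56%, and the choice of peaks without an H3K4me2 call raises it. The single-peak interval of this ratio lay above 1 in 103 outside peaks, or 25.8%, against 2.61% of all 5062.

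**Figure D5:**
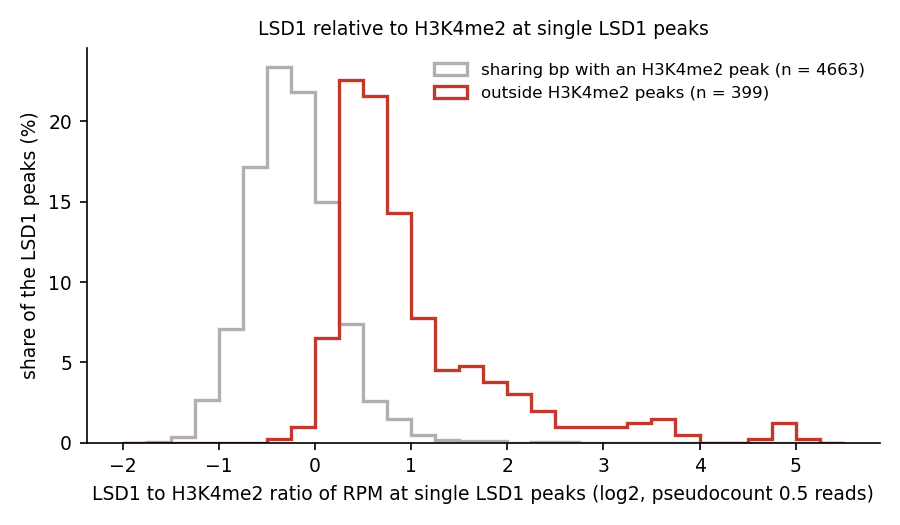
Distribution of the LSD1 to H3K4me2 ratio of RPM at single peaks (x axis, log2, with a pseudocount of 0.5 reads) as a share of each set in percent (y axis). The 399 outside peaks (red) lie to the right of the 4663 shared peaks (grey), with medians of 1.63 and 0.833 on the linear scale, and the separate group at the far right is the 7 outside peaks with no H3K4me2 read, placed there by the pseudocount.

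The 135 peaks with LSD1 at least 2-fold over H3K4me2 were set beside the remaining 264; their LSD1 and H3K4me2 counts chose them, so these values are a description. They held a median of 15 LSD1 and 5 H3K4me2 reads, and the 264 held 15 and 12. Median widths were 362 and 387.5 bp. H3K4me2 was 1.36-fold over IgG (1.20 to 1.55) in the 135 and 4.22-fold (3.86 to 4.62) in the 264. IgG density was 1.51 RPM per kb in the 135 and 1.11 in the 264. The 135 lay farther from H3K4me2 peaks at the median, with gaps of 8204 and 2642 bp. Lower quartiles of the gap were 870.5 and 360.5 bp, but upper quartiles were 23243.5 and 25358.2 bp. They were 51.3% (39.7 to 62.8) of the outside peaks at 5 to 20 kb but 24.1% (16.5 to 33.1) of those under 500 bp away and 28.6% (14.6 to 46.3) of those at 100 kb or more. At 400 to 1000 bp from the centre of the 135, H3K4me2 was at 1.89 RPM per kb (1.81 to 1.98) and IgG at 0.765 (0.704 to 0.829), a window that takes in neighbouring called H3K4me2 peaks. In the 78 of them at 5 kb or more from an H3K4me2 peak, H3K4me2 was at 1.06 (0.977 to 1.14) there and IgG at 0.665 (0.591 to 0.745). In the central 200 bp of these 78, H3K4me2 was at 1.99 (1.72 to 2.28) and IgG at 1.67 (1.39 to 1.99), with overlapping intervals, while LSD1 was at 10.3 (9.68 to 11.0).

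Reads of a bound fragment begin on the plus strand before the site and on the minus strand after it. The mean minus-strand start of LSD1 reads lay after the mean plus-strand start in 348 of the 399 outside peaks (87.2%, 83.5 to 90.3), by a median of 62.4 bp over all 399. In the shared peaks this held for 75.6% (74.4 to 76.9), with a median of 50.1 bp. Under 400 bp of width the shares were 87.9% (83.0 to 91.8) and 73.9% (71.6 to 76.1). At 400 bp or more they were 86.3% (80.2 to 91.1) and 76.4% (74.9 to 77.9). The parts of width and read number in this difference were not tested. Both strands were used about equally, with 49.7% of LSD1 reads on the plus strand (48.6 to 50.9), and 4 outside peaks had under 20% of their LSD1 reads on 1 strand. H3K4me2 reads showed the plus-before-minus order in 57.9% (52.8 to 62.9) of the 380 outside peaks with both strands, against 70.1% (68.8 to 71.5) of the shared peaks. IgG reads showed it in 58.1% (51.4 to 64.5) of the 229 outside peaks with both strands. The pooled H3K4me2 share was thus near that of the control. Below it is split at 2-fold LSD1 over H3K4me2. That ratio counted H3K4me2 reads after a move of 100 bp along their strand. The split therefore favours unlike shares of the plus-before-minus order, and the shares by group are a description. H3K4me2 showed this order in 67.0% (61.0 to 72.7) of the 264 peaks with LSD1 under 2-fold over H3K4me2. Of the 135 at 2-fold or more, 116 had both strands, and 37.1% (28.3 to 46.5) of these showed it. IgG shares in the 264 and the 135 were 55.8% (47.1 to 64.2) and 61.5% (50.8 to 71.6), where both strands had reads.

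Outside peaks were spread over all 19 autosomes. The nearest other LSD1 peak was a median of 71572 bp away, against 25702 bp for the shared peaks, and within 10 kb for 20.1% (16.2 to 24.3) against 35.5% (34.1 to 36.9). The nearest other outside peak was a median of 1148758 bp away. Of the 399, 14 had one within 1 kb and 43 had one within 100 kb. Whether they lay closer together than an even spread would place them was not tested. Per Mb they were most frequent on chromosome 17, with 0.347, and chromosome 11, with 0.286, and least frequent on chromosomes 3 and 1, with 0.0702 and 0.0721. These rates do not account for the number of LSD1 peaks. Outside peaks made up 10.2% (7.10 to 14.1) of the LSD1 peaks on chromosome 17 and 6.09% (4.26 to 8.41) on chromosome 11, against 7.88% in all. As a share of LSD1 peaks they ran from 4.41% (2.04 to 8.21) on chromosome 19 to 12.8% (7.50 to 19.95) on chromosome 18, and these intervals overlapped.

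The 3 outside peaks with the most LSD1 reads had little H3K4me2. Ratios printed for named peaks, here and below, are without the pseudocount. The first, on chromosome 4 from 139814723 to 139815386, held 54 LSD1 reads, 5 H3K4me2 reads, 6 IgG reads and 3 Input reads. LSD1 was there 7.34-fold over IgG (3.16 to 20.9) and 11.9-fold over H3K4me2 (4.79 to 38.1), and the nearest H3K4me2 peak was 9341 bp away. On chromosome 7 from 6362806 to 6363248 there were 46 LSD1, 7 H3K4me2, 3 IgG and 2 Input reads, with LSD1 12.5-fold over IgG (4.02 to 62.8) and 7.23-fold over H3K4me2 (3.24 to 18.97). On chromosome 19 from 4988960 to 4989493 there were 36 LSD1, 3 H3K4me2, 4 IgG and 2 Input reads, with LSD1 13.2-fold over H3K4me2 (4.17 to 67.0). In these 3 regions the H3K4me2 to IgG intervals included 1, while each LSD1 to IgG interval lay above it. Counts of at least 20 LSD1 reads with at most 5 H3K4me2 reads occurred in 10 outside peaks and in none of the 4663 shared peaks. The H3K4me2 calls that separate the sets favour this difference, so it is a description of the choice.

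The next 4 by LSD1 reads held both signals. On chromosome 2 the region at 172341380 to 172342208, also the widest outside peak at 829 bp, held 34 LSD1 and 23 H3K4me2 reads beside 6 IgG and 2 Input reads. On chromosome 7 from 4453458 to 4454115, 320 bp from an H3K4me2 peak, there were 34 LSD1 and 19 H3K4me2 reads beside 1 IgG and 4 Input reads. Chromosome 15 at 102162257 to 102163017 had 33 LSD1 and 27 H3K4me2 reads, 2 IgG reads and the most Input reads of the outside peaks, 5. On chromosome 2 from 71493933 to 71494622 there were 30 and 21, with 3 IgG and 2 Input reads. In each of these 4 the lower end of the H3K4me2 to IgG interval lay above 1, the lowest being 1.12 in the widest peak. The eighth, on chromosome 3 from 122011163 to 122011626, held 30 LSD1 and 11 H3K4me2 reads but also 9 IgG reads, so that LSD1 was 2.72-fold over IgG (1.26 to 6.51) and H3K4me2 was at 0.906 of IgG (0.341 to 2.47).

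Of the 82 outside peaks with at least 20 LSD1 reads, the 8 with the highest LSD1 to IgG ratio held 0 or 1 IgG read. No IgG read was found at 128421916 to 128422471 of chromosome 8, which had 26 LSD1 and 18 H3K4me2 reads, or at 89406230 to 89406706 of chromosome 1, which had 22 and 17. The same was true at 35611286 to 35611763 of chromosome 11, which had 22 and 12, and at 48036937 to 48037479 of chromosome 14, which had 22 and 18. Against the floor of 3 IgG reads LSD1 was at least 7.06-fold higher in the first and at least 5.98-fold higher in the other 3. These 4 held 1, 1, 0 and 2 Input reads in the same order. The peaks of chromosome 7 starting at 4453458, 20249239 and 26489670 and of chromosome 6 starting at 37249610 held 1 IgG read each and 34, 28, 25 and 26 LSD1 reads. The one at 26489670 tied for the last place with the peak of chromosome 16 starting at 6348688, which also held 25 LSD1 reads and 1 IgG read; ties went to the lower chromosome number. Ranking by this ratio favours peaks that happen to hold few IgG reads. All 8 listed held at least 12 H3K4me2 reads.

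The 6 outside peaks farthest from an H3K4me2 peak still held H3K4me2 reads. Chromosome 1 from 25886688 to 25887025, at a gap of 1778946 bp, held 11 LSD1 and 10 H3K4me2 reads beside 1 IgG and 0 Input reads. Chromosome 14 from 40286338 to 40286671, at 1419389 bp, held 18 and 11 with no IgG or Input read, and its nearest other LSD1 peak was 4703427 bp away. On chromosome 16 from 6348688 to 6349243, at 874595 bp, there were 25 LSD1 and 18 H3K4me2 reads beside 1 IgG read and no Input read. The others, on chromosomes 6, 8 and 17 starting at 45010088, 105307833 and 91487479, held 13, 15 and 18 LSD1 reads and 5, 11 and 11 H3K4me2 reads. In these 6 peaks LSD1 and H3K4me2 counts both exceeded the 0 to 2 IgG reads.

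At the other end, among the 236 outside peaks with at least 15 LSD1 reads, 1 held no H3K4me2 read and 6 held 1. On chromosome 9 the region at 119480478 to 119480842 had 15 LSD1 reads, no H3K4me2 read, 2 IgG reads and no Input read, so that LSD1 was at least 5.50-fold over an H3K4me2 floor of 3 reads. On chromosome 7 the one at 52025355 to 52025831 had 19 LSD1 reads, 1 H3K4me2 read and no IgG or Input read. Those on chromosomes 4, 9, 13 and 15 starting at 155233411, 21754818, 100980486 and 72398964 held 16, 17, 18 and 15 LSD1 reads, 1 H3K4me2 read and 1, 3, 1 and 2 IgG reads. The last, on chromosome 16 from 13778652 to 13778952, held 16 LSD1 reads, 1 H3K4me2 read and 2 IgG reads. Gaps to the nearest H3K4me2 peak ran from 915 bp, in this last peak, to 240383 bp. H3K4me2 at these sites was not detectable above IgG at this depth.

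The most H3K4me2 reads in an outside peak were 30, on chromosome 9 from 66440998 to 66441657, with 24 LSD1, 3 IgG and 3 Input reads. H3K4me2 was there 7.41-fold over IgG (2.30 to 38.0), and the nearest called H3K4me2 peak was 77917 bp away. Chromosome 12 from 85488938 to 85489578 followed with 22 H3K4me2 reads, after the regions of chromosomes 15 and 2 given above, and 6 outside peaks held 21, among them chromosome 7 from 13620094 to 13620763. In all, 15 outside peaks held at least 20 H3K4me2 reads, and 5 had more H3K4me2 than LSD1 in RPM.

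At the border of the rule, 2 outside peaks abutted an H3K4me2 peak with a gap of 0 bp, at 76476659 to 76477021 of chromosome 15 and 37095326 to 37095850 of chromosome 17. They held 15 and 25 LSD1 reads and 9 and 13 H3K4me2 reads. Peak edges follow the read files, in which a read's end minus its start is its length of 36 bases: 2457 of 5106 LSD1 peaks start on the start of a plus-strand LSD1 read and 2513 end on the end of a minus-strand one. The end position is thus taken as not part of a peak, and abutting peaks share no base. If both ends were part of it, these 2 would share 1 bp with an H3K4me2 peak and would not be outside peaks. The next, with gaps of 4, 6 and 6 bp, started at 12949981 on chromosome 12, 167953947 on chromosome 2 and 69794899 on chromosome 11, and held 4, 0 and 11 H3K4me2 reads. Just past the border, the 5 shared peaks with the least overlap shared 3, 5, 7, 8 and 10 bp with an H3K4me2 peak and held 7, 11, 10, 11 and 7 H3K4me2 reads. The range was 0 to 13 reads in the 5 outside peaks and 7 to 11 in the 5 shared ones.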

How the data were processed

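Input, IgG, LSD1 and H3K4me2 libraries of mouse embryonic stem cells, 1 each, were used. Counts are lines of the deposited read files, each 1 read of 36 bases on mm9, per the submitters' processing notes and the labels' protocols. Of the aligner and of the peak caller, its threshold and its control, the sources used here give nothing. No start and strand was repeated within a library. Peak lists hold positions only, printed here counted from 1.

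Reads were assigned after a move of 100 bp along the strand. RPM used all reads of a library. Ratios of sums carry exact binomial 95% intervals conditional on both counts, shares exact Clopper-Pearson intervals, and densities exact Poisson intervals. The summed ratio was tested on simulated counts drawn around a mean common to all peaks. That setting holds no spread between peaks and no choice by calls, so the simulation cannot speak to either. Named regions are the 8 with the most LSD1 reads, the 8 highest in LSD1 over IgG with 20 or more LSD1 reads, the 6 farthest from and the 5 nearest to an H3K4me2 peak, the 6 with the most and the 6 with the fewest H3K4me2 reads (the latter with at least 15 LSD1 reads), the 4 widest, and the 5 with the least overlap, with ties going to the lower chromosome number and then the lower start. The peak tied for the fewest H3K4me2 reads was added after its values were seen. The widest are among the others except 1, on chromosome 9 from 20189564 to 20190261, with 29 LSD1, 21 H3K4me2, 2 IgG and 2 Input reads. Members, lists and classes were chosen with earlier results of these data known, and the split at 2-fold LSD1 over H3K4me2 with the values of its 78 distant peaks, the strand shares by width and the profiles by gap were added after values were seen. Alternatives changed the read move, scaling, control, pseudocount, count minimum, window and overlap rule. GC content was not examined. Scripts ran in Python 3.11.15 with scipy 1.17.1, numpy 2.4.6, pandas 2.3.3 and, for plots, matplotlib 3.10.9.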

Additional observations from a re-analysis of the deposited data

How the results depend on the processing

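Over 9 results 40 alternative values were computed, 39 of them planned. Of these 26 stayed within the interval of the reported value (a count or a gap within 1.5 times), 14 moved beyond it and 0 changed direction. With Input as the control LSD1 was at 23.8 and H3K4me2 at 12.9. Scaling to reads outside all called peaks gave 6.19 for LSD1 over IgG, 3.76 for H3K4me2 over IgG and 1.65 for LSD1 over H3K4me2. With the peaks on X and those touching an IgG peak included, LSD1 over IgG was 3.98, H3K4me2 over IgG 2.13 and IgG over Input 5.46. At 1 kb or more from an H3K4me2 peak, H3K4me2 over IgG was 2.84 and LSD1 over H3K4me2 was 1.97. With at least 15 LSD1 reads, IgG over Input was 3.16. The number of outside peaks was 255 with a gap of at least 1 kb and 1519 when only the upper 50% of H3K4me2 peaks by read density counted, and the median gap of the 399 peaks to those was 23229 bp. Leaving out the 3 peaks with the most LSD1 reads from the 5 to 20 kb class was chosen after seeing the data. No paired analysis was possible because no group had more than 1 library. With medians of 2 IgG reads and 0 Input reads a peak, depth limits single-peak ratios more than summed ones.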

Other observations

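Of the 422 LSD1 peaks that share 0 bp with an H3K4me2 peak, 23 were left out of the 399 by the other rules. The 17 autosomal ones that touch an IgG peak held 388 LSD1 reads and 479 IgG reads, so that LSD1 was at 0.660 of IgG (0.576 to 0.756). H3K4me2 was at 0.296 of IgG there (0.249 to 0.350), and IgG was 14.7-fold over Input (9.92 to 22.8). The 6 on chromosome X held 100 LSD1, 56 H3K4me2, 36 IgG and 6 Input reads, with LSD1 2.26-fold over IgG (1.53 to 3.41) and H3K4me2 at 1.15 (0.745 to 1.80).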
